A study of Mus musculus with 15 samples.

Results

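Binding of FLAG-tagged Sp7 was compared with binding of FLAG-tagged Sp1 in MC3T3-E1 cells, a mouse calvarial pre-osteoblast line, using the peak lists of 2 ChIP-seq libraries for each factor. Peaks of the replicates of a factor were merged where they shared at least 1 bp, and a merged interval was kept as a region of that factor when it held a peak of each replicate and lay off every peak of a GFP library taken through the same FLAG pulldown. This gave 5018 Sp7 regions and 8937 Sp1 regions, and 12427 regions once the regions of both factors were merged, of 31637 over the 5 tagged groups of the series. Of the 12427, 3496 (28.1%) were regions of Sp7 alone, 7413 (59.7%) of Sp1 alone and 1518 (12.2%) of both. In the whole text, a peak is an interval of 1 list and a region is an interval found in both replicates.

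All cell line libraries came from cells at passages 5 to 10 kept for 1 week in osteogenic medium with BMP-2 at 10 ng/ml, beta-glycerophosphate at 10 mM and ascorbic acid phosphate at 50 ug/ml, and the M2 anti-FLAG antibody was used for every pulldown. The groups differed in the tagged protein alone, as far as the labels say: Sp7, Sp1, GFP as the control, the homeodomain factor Dlx5, and a mutant labelled Sp7mut, whose mutation is not stated. How the proteins were expressed, and at what level, is not stated either. Primary calvarial osteoblasts of postnatal day 1 C57BL/6 mice of genotype Sp7-BioFL/BioFL, with a wild-type FLAG control, served here only as a further readout. One cell line input library served for calling Sp7 and Dlx5 peaks and another for Sp1 and Sp7mut, and the labels tie neither to GFP. As a result, a difference between Sp7 and Sp1 cannot be told apart from one between the inputs. The replicates are not said to come from separate cultures, and their spread may be technical.

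Sp7 (Osterix) and Sp1 belong to the same family of zinc finger factors, whose members share a DNA-binding domain at the carboxyl end. Sp1 is expressed in most cell types and is known for binding GC-rich sites, many of them in promoters, as a general activator. Sp7 is made mainly by cells of the bone lineage and is needed for osteoblasts to form. Dlx5 is a homeodomain factor that binds AT-rich sites and takes part in skeletal development.

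The lists held 18624 and 6063 peaks for Sp7, 10549 and 28210 for Sp1 and 269 for GFP. They carry no score or read count, and library depth is unknown. The longer list was replicate 1 for Sp7 and replicate 2 for Sp1. Of 5094 Sp7 regions before the control was applied, 76 lay over a GFP peak, and 60 of these were among the 1584 that also overlapped an Sp1 region. For Sp1, 166 of 9103 were removed. After that step, 13 Sp7 regions and 22 Sp1 regions still lay over a peak of the wild-type control of primary cells.

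Fewer than 1 in 3 Sp7 regions were Sp1 regions, but most held an Sp1 peak in at least 1 list. Of 5018 Sp7 regions, 1522 (30.3%, 95% Clopper-Pearson interval 29.1 to 31.6) overlapped an Sp1 region. The background was 16.6%, over merged regions of the tagged cell line groups other than Sp1, the tested Sp7 regions included. A further 2021 (40.3%) met an Sp1 peak without meeting an Sp1 region, and 1927 of these met a peak of Sp1 replicate 2 alone. The remaining 1475 (29.4%, 28.1 to 30.7) met no peak of either Sp1 list. Any Sp1 peak was thus met by 70.6% of Sp7 regions, against a background of 45.5%. The intervals cover counting error only and treat regions as independent.

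Seen from Sp1, the same overlaps were a smaller share of a larger set. Of 8937 Sp1 regions, 1524 (17.1%, 16.3 to 17.8) overlapped an Sp7 region, against a background of 15.6% over merged Sp1, Dlx5 and Sp7mut regions. Another 2901 (32.5%) met an Sp7 peak but no Sp7 region, 2802 of them through Sp7 replicate 1 alone. No Sp7 peak was met by 4512 Sp1 regions (50.5%, 49.4 to 51.5). Any Sp7 peak was met by 49.5%, against a background of 45.9%. With the first 5018 regions of each factor in row order, 20.4% of either set were shared. At equal size the shares must be nearly equal, and no background was taken at that length. With an overlap of at least 50% of both intervals, 17.2% of Sp7 regions were Sp1 regions and 9.94% of Sp1 regions were Sp7 regions. Over the merged Dlx5 and Sp7mut regions that were not Sp7 regions, 13.2% were Sp1 regions, and over those that were not Sp1 regions, 14.9% were Sp7 regions.

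The size of the overlap followed the length of the Sp1 list. Of the peaks of Sp7 replicate 1, 25.1% met a peak of Sp1 replicate 1 and 60.2% a peak of Sp1 replicate 2. For Sp7 replicate 2 these shares were 27.7% and 61.4%. The spread between the Sp1 lists was thus far wider than that between the Sp7 lists. Without Sp1 replicate 1, so that a peak of replicate 2 was enough, 68.7% of Sp7 regions met Sp1. Without Sp1 replicate 2, 68.3% of Sp7 regions had no Sp1 peak. From the Sp1 side, 48.5% met Sp7 without Sp7 replicate 2, and 82.4% had no Sp7 peak without Sp7 replicate 1. With every list kept to its first 5000 rows off control peaks, the 4 pairs gave 21.3% and 23.7% for Sp7 replicate 1 and 17.4% and 18.8% for Sp7 replicate 2. At that length the Sp7 lists lay apart and the Sp1 lists close together. The smallest p an exact two-sided permutation test of 2 lists against 2 can give is 0.33, and for this reason differences were not tested but set against the spread over lists.

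In the mean row order of both replicates, a smaller share of the leading Sp7 regions than of all Sp7 regions were Sp1 regions. For Sp1 it was the other way round, with a larger share of the leading Sp1 regions than of all Sp1 regions being Sp7 regions. The labels do not say what orders the rows, and it is not genomic position. A region was placed by the mean of its row percentiles in the lists of its replicates. Among the first 100 Sp7 regions, 12 were Sp1 regions (12.0%, 6.36 to 20.02), and among the first 250 there were 31 (12.4%). The interval of the former holds the background of 16.6% and lies below the 30.3% of all Sp7 regions. Most of these leading regions still met a peak of at least 1 Sp1 list: no Sp1 peak was met by 25 of the first 100 and by 0 of the first 10. The share with an Sp1 region was 26.2% over the first 1000. Among the first 100 Sp1 regions, 49 were Sp7 regions (49.0%, 38.9 to 59.2), against a background of 15.6% and 17.1% of all Sp1 regions, and 11 had no Sp7 peak at all. The share was 34.1% over the first 1000 Sp1 regions. Dlx5 regions too were met by a larger share of the first 100 Sp1 regions, 53.0%, than of all Sp1 regions, 30.5%.

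Over their first 100 peaks, single lists showed the same pair of starts. Of the first 100 peaks off control peaks, 12 in Sp7 replicate 1 and 10 in Sp7 replicate 2 met an Sp1 region. In the Sp1 lists, 47 and 56 of the first 100 met an Sp7 region. The ranges of the factors did not overlap at this length, but they were measured to sets of unequal size. The background was 16.6% for meeting an Sp1 region and 15.6% for meeting an Sp7 region. Of the first 1000 peaks, 363 and 210 in the Sp7 lists and 303 and 382 in the Sp1 lists met a region of the other factor, and the factors no longer parted. Over all intervals, 24.4% of Sp7 replicate 1 and 26.8% of Sp7 replicate 2 met an Sp1 region. An Sp7 region was met by 15.8% of Sp1 replicate 1 and 12.7% of Sp1 replicate 2. Sp7 replicate 1 was below its own share at the first 100 peaks but above it at the first 500 (28.4%) and 1000. Sp7 replicate 2 was below its own share at the first 500 (14.2%) and 1000 too. At 2500 rows the Sp7 lists stood at 38.1% and 28.1% and the Sp1 lists at 24.0% and 28.8%.

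Further down, the shared part was smaller in the Sp1 lists and took a different course in each replicate of Sp7. With each list cut into successive 10% of its rows, 30.1% of the peaks in the first 10% and 9.84% in the last 10% of Sp1 replicate 1 met an Sp7 region. Sp1 replicate 2 went from 27.3% to 4.89%. Of Sp7 replicate 1, 38.5% in the first 10% and 19.9% in the last met an Sp1 region. Sp7 replicate 2 began at 16.2%, stood at 34.5% between 20% and 30% of its rows and ended at 24.5%. The first 10% held 1847 peaks in Sp7 replicate 1 and 598 in replicate 2.

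**Figure D1:**
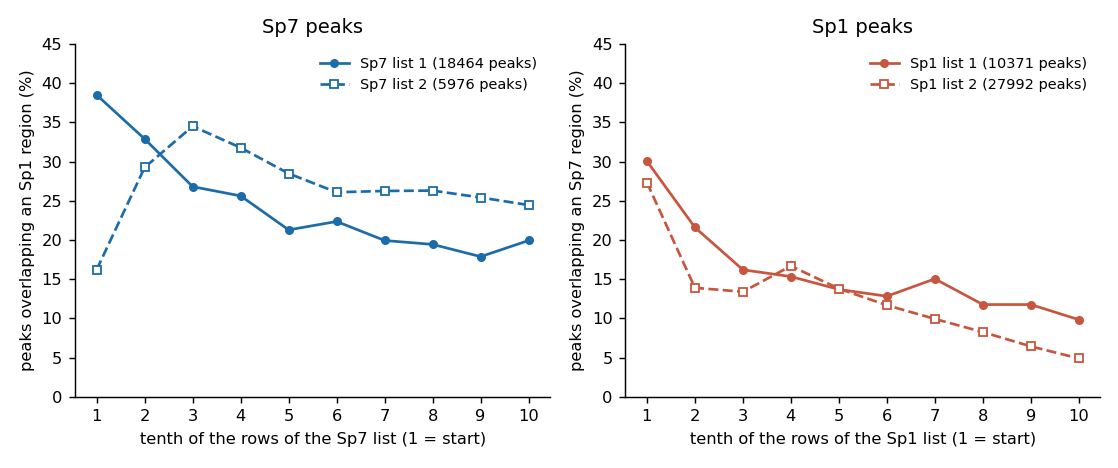
Share of peaks off control peaks that overlapped a region of the other factor (y axis, %), by successive 10% of the rows of each list (x axis, 1 is the start), for the 2 Sp7 lists on the left and the 2 Sp1 lists on the right. Both Sp1 lists start near 30% and end below 10%, while Sp7 replicate 1 starts at its highest value, 38.5%, and Sp7 replicate 2 at its lowest, 16.2%. In the last 10%, only 4.17% of peaks of Sp7 replicate 1 and 1.04% of Sp1 replicate 2 were found again in the factor's other replicate.

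Among Sp1 regions, those shared with Sp7 stood earlier in both lists. Their median row percentile was 34.3 in Sp1 replicate 1, against 47.8 for Sp1 regions without an Sp7 region. In Sp1 replicate 2 the medians were 10.3 and 18.1. Sp1 regions without any Sp7 peak stood later still, at 49.3 and 19.8. Among Sp7 regions the lists did not point the same way. Shared regions stood earlier in Sp7 replicate 1, at a median of 12.4 against 19.8, and slightly later in Sp7 replicate 2, at 46.8 against 44.6. Averaged over the lists, the medians were 31.3 for shared Sp7 regions and 35.3 for the rest, a difference of -4.00 points that was within the spread over lists. It was -13.6 without Sp7 replicate 2 and -2.44 without Sp1 replicate 1. For Sp1 the mean-based difference was -11.1, with -17.0 without Sp1 replicate 1 and -6.36 without Sp7 replicate 2. In the second 20% of the Sp7 regions in row order 39.7% (36.6 to 42.8) were Sp1 regions, against 26.3% (23.6 to 29.1) in the first and 24.7% (22.1 to 27.5) in the last.

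Over all shared pairs, a site's place in the Sp7 lists was only weakly correlated with its place in the Sp1 lists. Across 1528 pairs of overlapping Sp7 and Sp1 regions, the Spearman correlation of row percentiles was 0.234. Between the replicates it was 0.747 for Sp7 and 0.924 for Sp1 over the same pairs. Single lists of the factors gave 0.186 to 0.325. For comparison, it was 0.520 for Sp7 and Dlx5 over 4262 pairs, 0.664 for Sp7 and Sp7mut over 3511, 0.280 for Sp1 and Sp7mut over 3291 and -0.125 for Sp1 and Dlx5 over 2749. These are descriptions across regions, which are not replicates. The sets of pairs differ, and Sp7 and Dlx5, like Sp1 and Sp7mut, share an input library.

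The leading shared Sp7 regions fell into 2 groups by their place in the Sp1 order. Of the 264 pairs in the first 20% of Sp7 regions, 163 lay in the first 20% of Sp1 regions and 66 in the last 40%, with 35 between. For comparison, 56 of the 248 pairs in the last 20% of Sp7 regions, and 519 of all 1528 pairs, lay in the first 20% of Sp1 regions. The group early in both orders met a primary osteoblast Sp7 region in 13 of 163 cases (7.98%, 4.31 to 13.3). The group early for Sp7 and late for Sp1 did so in 33 of 66 (50.0%, 37.4 to 62.6). The latter share was near that of unshared regions in the first 20% of the Sp7 order. There it was 45.1% with no Sp1 peak and 62.8% with an Sp1 peak but no region. The background was 4.81%. Dlx5 regions were met by 96.9% and 93.9% of these groups. Midpoints of the Sp7 and Sp1 regions lay a median of 12.5 bp apart in the former group and 45.3 bp in the latter. At the very top the orders scarcely met: 1 pair was among the first 100 of both factors, 36 among the first 500 and 131 among the first 1000. The groups of pairs were formed after the values had been seen.

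**Figure D2:**
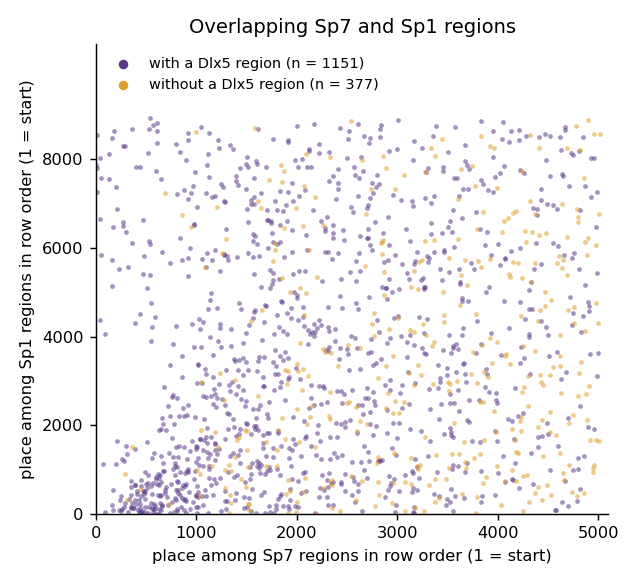
Each point is 1 of 1528 pairs of overlapping Sp7 and Sp1 regions, by its place among the 5018 Sp7 regions (x axis) and among the 8937 Sp1 regions (y axis) in row order, coloured by whether the Sp7 region met a Dlx5 region (1151 pairs) or not (377). Points gather at the lower left, short of the first places on the x axis, and pairs without Dlx5 lie mostly to the right.

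The shared sites that stood high in both orders were narrow and their peaks nearly coincided. Ranked by the worse of the factors' percentiles, the leading shared site was chr11:86571029-86571235 (mm9, 207 bp). It stood at rows 76 and 103 of the Sp7 lists and rows 49 and 27 of the Sp1 lists, and the midpoints of the Sp7 and Sp1 regions were 6 bp apart. The next was chr2:168032875-168033043, at rows 154 and 201 for Sp7 and 272 and 238 for Sp1. Then came chr2:173901659-173901833, at rows 145 and 210 for Sp7 and 118 and 110 for Sp1. The fourth, chr4:45354847-45355003, stood at rows 143 and 299 for Sp7 and 123 and 132 for Sp1. The fifth, chr6:86634485-86634645, stood at rows 213 and 295 for Sp7 and 425 and 235 for Sp1, with midpoints 0.5 bp apart. These 5 sites were Dlx5 and Sp7mut regions too, and primary osteoblasts had an Sp7 region at the first and the third. At the leading site, Dlx5 stood at rows 3077 and 3456 and Sp7mut at rows 33 and 43.

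The widest shared site, chr8:86725312-86727660, was of another kind. It spanned 2349 bp as a chain of overlapping peaks and stood at rows 4702 and 3235 of the Sp7 lists and 2319 and 2769 of the Sp1 lists. The midpoints of the Sp7 and Sp1 regions in it were 877 bp apart. It was an Sp7mut region, and it met peaks of each Dlx5 list that did not form a Dlx5 region.

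Sp7 regions with no Sp1 peak were led by sites that Dlx5 and Sp7mut also bound, as were the leading shared sites. The first was chr6:4457488-4457653, at rows 14 and 10 of the Sp7 lists. It stood at rows 5 and 4 of the Dlx5 lists, rows 23 and 47 of the Sp7mut lists and rows 180 and 308 of the primary Sp7 lists. The nearest Sp1 region lay 19056.5 bp away, midpoint to midpoint. The others were chr19:59942472-59942622 at Sp7 rows 24 and 25, chr10:16996514-16996665 at rows 63 and 14, chr5:32206244-32206385 at rows 11 and 31 and chr15:58412019-58412194 at rows 36 and 30. Their distances to the nearest Sp1 region ranged from 77065.5 to 445616 bp. All 5 leading sites were Dlx5 and Sp7mut regions, and 4 had an Sp7 region in the primary cells, the exception being the one on chromosome 10. The widest region of this class, chr6:135313818-135314572, had 755 bp, stood far down at Sp7 rows 6484 and 1860, and met Dlx5 but not Sp7mut.

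Sp1 regions with no Sp7 peak were led by sites that none of the Dlx5 regions met. The first was chr2:148498225-148498366, at rows 6 and 5 of the Sp1 lists. It met a peak of 1 Dlx5 list only, at row 21435. The second, chr6:134516951-134517258 at Sp1 rows 38 and 14, was an Sp7mut region at rows 260 and 1433. The third, chr8:109459519-109459637, stood at Sp1 rows 39 and 78, and the fourth, chr2:37298727-37298853, at rows 45 and 151. Both met an Sp7mut region too. At the third site Sp7mut stood at rows 6816 and 8105. At the fourth only Sp7mut replicate 2 had a peak at the site itself, at row 9342. The fifth, chr5:24191654-24191831 at rows 98 and 106, met no peak of any other tagged group. Their nearest Sp7 regions were 48374 to 262181 bp away, and none of the 5 was an Sp7 region in primary cells. The widest of the class, chr17:12961992-12962932 with 941 bp, stood at Sp1 rows 7558 and 7544 and was met by no other group. No annotation of mm9 was used here, and for this reason no gene is named.

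Within shared sites, Sp7 and Sp1 peaks lay about as close to each other as peaks of the Sp7 replicates did. Midpoints of overlapping peaks of Sp7 and Sp1 were a median of 34.0, 34.5, 37.5 and 39.0 bp apart over the 4 pairs of lists. In the same sites this distance was 31.5 bp between the Sp7 replicates and 23.0 bp between the Sp1 replicates. Between Sp7 and Dlx5 peaks it was 34.8 to 38.0 bp, and between Sp1 and Dlx5 peaks 40.0 to 46.8 bp. Sp1 and Sp7mut peaks were the closest pair of different proteins measured there, at 24.8 to 32.5 bp. Only peaks sharing at least 1 bp were measured, so that peak widths limit the offset for every pair of lists. No test was made between these ranges. In 40.4% to 43.0% of Sp7 and Sp1 peak pairs the shorter peak lay wholly inside the longer.

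The offset grew down the Sp7 order. Between merged regions its median was 17.3 bp in the first 20% of Sp7 regions (264 pairs), 40.5 bp in the middle 20% and 86.8 bp in the last (248 pairs). Offsets over 100 bp made up 11.7% of pairs in the first and 45.2% in the last. In the Sp1 order the medians went from 29.0 bp to 50.5 bp. Pairs with a Dlx5 region had a median of 37.5 bp and those without 52.5 bp. Peak widths were alike in the classes of Sp1 regions. In the Sp7 lists, peaks at shared regions had median widths of 172 and 174 bp, against 158 bp in both lists at regions without an Sp1 peak.

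Regions that were not shared did not lie beside each other as a rule. From an Sp7 region without an Sp1 region to the nearest Sp1 region, the median distance was 55.4 kb, and 19.1% had an Sp1 region within 10 kb. Where no Sp1 peak was met at all, the median was 75.5 kb with 16.8% within 10 kb, and where an Sp1 peak without a region was met, 46.2 kb with 20.7%. Dlx5 regions without Sp7 or Sp1 gave a background of 59.8 kb and 17.6% to the nearest Sp1 region. Sp7 regions without Sp1 thus stood about as near to Sp1 as these Dlx5 regions did. Without Sp1 replicate 1, which left 27661 intervals for Sp1, the median from Sp7 was 13.9 kb.

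In the other direction, Sp1 regions without an Sp7 region lay a median of 88.5 kb from the nearest Sp7 region, and 11.6% had one within 10 kb. The Dlx5 regions without either factor lay nearer to Sp7, at 74.6 kb and 14.3%. The distances in the 2 directions were measured to sets of unequal size, 8937 Sp1 and 5018 Sp7 regions. With the first 5018 regions of each factor their order turned, at 109 kb from Sp7 to Sp1 and 86.5 kb from Sp1 to Sp7. Without Sp7 replicate 2 the Sp1 median was 17.6 kb, since 18255 intervals then stood for Sp7. Along the Sp7 order the distance to Sp1 was not the same throughout. In the first 20% of Sp7 regions those without an Sp1 region were 78.7 kb from one, and 12.3% had one within 10 kb. In the last 20% the values were 48.3 kb and 22.0%. Along the Sp1 order the distance to Sp7 had no such course, with medians of 77.1, 91.8, 91.0, 103 and 80.7 kb in successive 20% of regions.

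**Figure D3:**
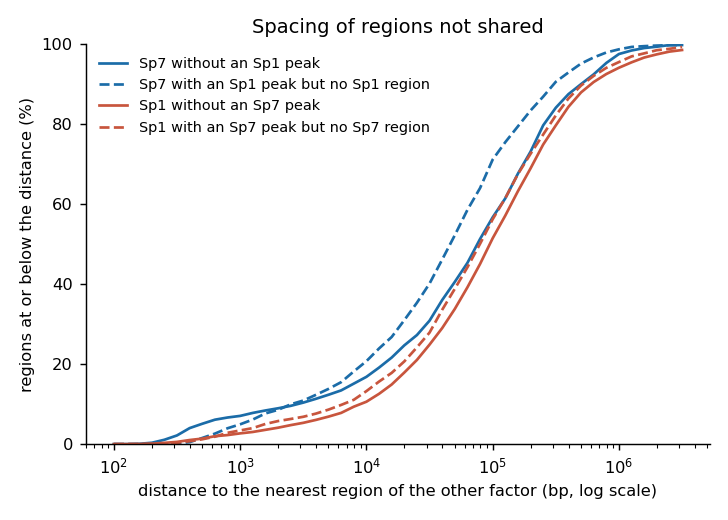
Cumulative share of regions (y axis, %) by distance between midpoints to the nearest region of the other factor (x axis, bp, log scale), for Sp7 regions (blue) and Sp1 regions (red) without any peak of the other factor (solid) and with a peak but no region of it (dashed). The dashed Sp7 line lies farthest to the left over most of its course, with a median of 46.2 kb, and the solid Sp1 line farthest to the right, with 94.4 kb. The Sp7 lines are measured to 8937 Sp1 regions and the Sp1 lines to 5018 Sp7 regions, and to the first 5018 Sp1 regions the median of the solid Sp7 line would be 163 kb.

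In sets of 8937 Sp1 and 5018 Sp7 regions, not compared at equal size, sites of the same factor were close together more often for Sp1. A difference between the factors cannot be read from these shares. Another Sp1 region lay within 10 kb of 24.5% of Sp1 regions, and another Sp7 region within 10 kb of 19.8% of Sp7 regions, in sets of unequal size. Shared Sp1 regions had such a neighbour in 27.5% and the other Sp1 regions in 23.9%. For Sp7 the values were 18.99% and 20.2%. Neither difference kept its direction over the pairs of single lists, which gave -1.14 to 2.44 percentage points for Sp7 and -4.11 to 2.16 for Sp1.

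When the 12427 merged regions were joined into chains wherever neighbouring midpoints were at most 10 kb apart, 1613 chains of 2 or more regions held 30.2% of all regions. Of these chains, 461 had a region of both factors, 402 had both factors in separate regions only, 559 were of Sp1 alone and 191 of Sp7 alone. Regions of both factors were in a chain in 34.9% of cases, those of Sp7 alone in 31.1% and those of Sp1 alone in 28.7%. The chains with the most regions were chr10:79604933-79635992 and chr11:94777085-94816569, with 12 regions each. In the former, 11 regions had Sp1 and 3 had Sp7. In the latter, 9 had Sp1 and 6 had Sp7. The chain next in size, chr1:137644690-137675869 with 7 regions, had Sp7 in 5 and Sp1 in 2, and no region of both.

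Shared sites were unevenly spread over the chromosomes. The share of Sp7 regions that were Sp1 regions ranged over the autosomes from 12.7% (7.14 to 20.4) of 110 regions on chromosome 18 to 40.7% (35.9 to 45.6) of 413 on chromosome 11. The share without any Sp1 peak was 46.4% on chromosome 18 and 23.2% on chromosome 11. On chromosome X, 14 of 21 Sp7 regions met no Sp1 peak, a share of 66.7%. Chromosome 6 stood out from the Sp1 side, with 31.3% (27.4 to 35.4) of its 543 Sp1 regions shared, against 7.07% (3.92 to 11.6) of 198 on chromosome 18. Chromosome 6 held 10.2% of all Sp7 regions and 6.08% of all Sp1 regions.

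Sp1 sites followed gene density more closely than Sp7 sites did. Over the 19 autosomes, merged regions of Sp1 alone per Mb had a Pearson correlation of 0.868 and a Spearman correlation of 0.891 with protein-coding genes per Mb, counted by chromosome in GRCm38.p6. Regions of both factors gave 0.635 and 0.647. Regions of Sp7 alone gave 0.392 and 0.40. When the 2 autosomes with the gene density farthest from the median were left out, the Pearson values were 0.919, 0.743 and 0.604. The share of Sp7 regions that were Sp1 regions had correlations of 0.763 and 0.788 with gene density. The share of Sp1 regions that were Sp7 regions gave 0.236 and 0.40. These are descriptions of chromosomes measured in the same libraries, and the differences between the values were not tested.

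**Figure D4:**
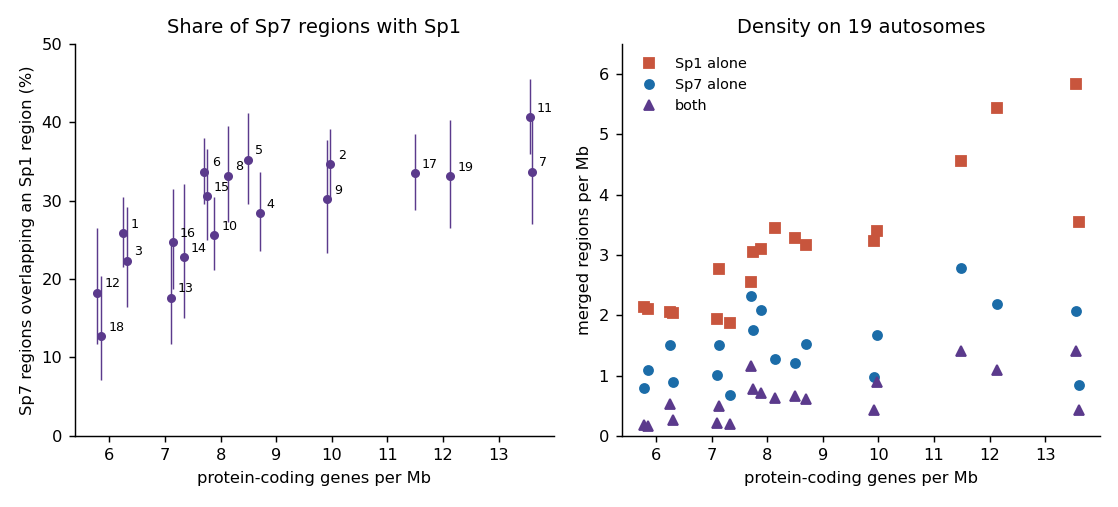
Left, share of Sp7 regions overlapping an Sp1 region (y axis, %, with 95% Clopper-Pearson intervals) against protein-coding genes per Mb (x axis) for the 19 autosomes, named by number. Right, merged regions per Mb of Sp1 alone (squares), Sp7 alone (circles) and both (triangles) against the same axis. The share is 12.7% on chromosome 18 and 40.7% on chromosome 11, and Sp1 alone has the steepest course.

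A lower share of Sp7 sites with Sp1 than of those without was also bound by Sp7 in primary osteoblasts. A primary Sp7 region was met by 84 of the 1522 Sp7 regions with an Sp1 region (5.52%, 4.43 to 6.79) and by 747 of the 3496 without (21.4%, 20.02 to 22.8), where the background over all merged cell line regions was 4.81%. On 20 of 20 chromosomes the share was lower with Sp1, but chromosomes are parts of the same libraries and not replicates. The share was lower in all 4 pairs of single lists too. In these pairs it was 1.83% with an Sp1 peak and 6.31% without, 4.63% and 6.03%, 5.07% and 19.6%, and 13.7% and 18.6%. The first value of each list belonged to Sp1 replicate 1 and the second to Sp1 replicate 2. The difference over regions, with Sp1 minus without, was -15.8 percentage points. It was -7.64 without Sp1 replicate 1 and -4.34 without Sp7 replicate 2.

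The gap between Sp7 regions with an Sp1 region and those with no Sp1 peak was seen at like places in the Sp7 order. In the first 20% of Sp7 regions, 19.7% (15.1 to 25.01) of those with an Sp1 region were primary Sp7 regions. Those with an Sp1 peak but no region reached 62.8% (58.0 to 67.4) and those with no Sp1 peak 45.1% (39.5 to 50.8). In this part the gap thus held for Sp1 regions and was not seen when any Sp1 peak counted. In each later 20% the share with an Sp1 peak but no region lay below the share with no Sp1 peak. In the fourth 20%, 0 of 285 regions with Sp1 were primary Sp7 regions, which allows a share of up to 1.29% (upper bound of the 95% Clopper-Pearson interval), against 39 of 262 (14.9%) of those without an Sp1 peak. Of Sp1 regions without an Sp7 region, 17 of 7413 (0.229%) were primary Sp7 regions.

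Sp7mut had a higher share of the Sp7 sites with Sp1 than of those without. Of Sp7 regions with an Sp1 region 86.1% (84.3 to 87.8) were Sp7mut regions, and of those without 62.4% (60.8 to 64.0), a difference of 23.8 percentage points, against a background of 24.2%. Of the Sp7 regions with no Sp1 peak the share was 52.3% (49.7 to 54.8). The share was higher with Sp1 on 20 of 20 chromosomes, which are not replicates. In the 4 pairs of single lists it was higher by 23.0 to 33.3 percentage points. In the last 20% of the Sp7 order it was 63.7% with an Sp1 region and 26.9% with no Sp1 peak. Of Sp1 regions, 85.8% of those with an Sp7 region, 49.3% of those with an Sp7 peak alone and 11.7% of those with no Sp7 peak were Sp7mut regions. Sp7mut was called against the same input library as Sp1, and its part in this difference was not tested.

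Dlx5 was met by a lower share of Sp7 regions with an Sp1 region than without, but the difference depended on the Sp1 list. Of these regions 75.5% (73.3 to 77.6) were Dlx5 regions, against 88.3% (87.2 to 89.3) of the other Sp7 regions and a background of 50.9%. With a peak of Sp1 replicate 1, 49.0% of the peaks of Sp7 replicate 1 met a Dlx5 region, against 63.1% without, and 72.5% against 83.2% in Sp7 replicate 2. With a peak of the longer Sp1 replicate 2 the shares were 59.6% and 59.4% in Sp7 replicate 1 and 80.1% and 80.4% in Sp7 replicate 2. The spread between the Sp1 lists was thus as large as the difference itself, which over regions was -12.8 percentage points and -4.74 without Sp1 replicate 1. It was -30.6 with the earlier 50% of the rows of each list and -38.5 with the first 5018 regions of each set, the Dlx5 set being shortened in both. Over regions, the share was lower with Sp1 on 20 of 20 chromosomes, which are parts of the same libraries and not replicates. In the first 20% of the Sp7 order the shares were alike, at 96.6% with an Sp1 region and 96.8% with no Sp1 peak. In the last 20% they were 51.2% (44.8 to 57.6) and 77.8% (73.2 to 82.0). Dlx5 was called against the same input library as Sp7.

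Seen from Sp1, most regions with an Sp7 region met Dlx5 and most of the others did not. Dlx5 regions made up 74.0% (71.7 to 76.2) of Sp1 regions with an Sp7 region, 37.2% of those with an Sp7 peak alone and 11.5% (10.6 to 12.5) of those with no Sp7 peak. The background was 50.9%, and 84.4% of all Sp7 regions met Dlx5, so that the share at sites of both factors lay below that of Sp7. The difference between Sp1 regions with and without an Sp7 region was 52.4 percentage points, and 36.1 to 52.5 over the 4 pairs of single lists. It was 38.3 without Sp7 replicate 2, and 13.9 when the Sp1, Sp7 and Dlx5 sets were each held to their first 5018 regions. Of the 4512 Sp1 regions with no Sp7 peak, 3589 (79.5%) were neither Dlx5 nor Sp7mut regions. Of the 1522 Sp7 regions with an Sp1 region 80 (5.26%) were neither, and 1018 (66.9%) were both. Of the 1475 Sp7 regions with no Sp1 peak 728 (49.4%) were both, and 585 (39.7%) were Dlx5 regions alone.

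**Figure D5:**
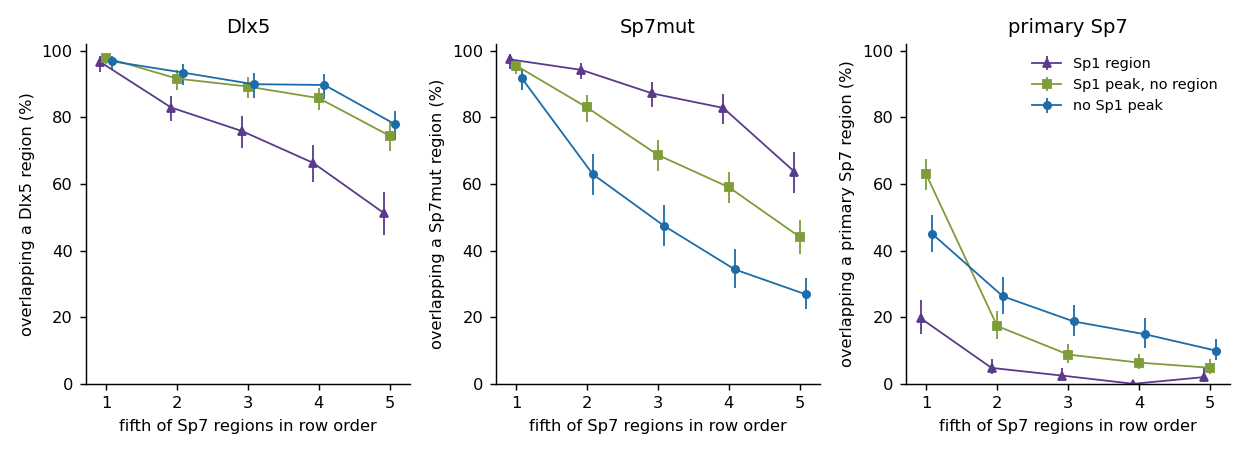
Share of Sp7 regions overlapping a Dlx5, Sp7mut or primary osteoblast Sp7 region (y axis, %, with 95% Clopper-Pearson intervals), by successive 20% of the Sp7 regions in row order (x axis), for regions with an Sp1 region (triangles), with an Sp1 peak but no region (squares) and with no Sp1 peak (circles). Regions with Sp1 lie lowest for primary Sp7 in every part, highest for Sp7mut in every part, and lowest for Dlx5 from the second part on.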

How the data were processed

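Each deposited list gives the start and end of peaks in mm9, per the submitters' processing notes, with no score or count, and the authors made 1 list per library. The aligner, caller and threshold were not given in the sources used here. Inputs were taken per the labels. Starts were read as 0-based and printed 1-based. Of 15 samples, 12 have a list and 3 are input DNA not analysed here. Groups came from sample titles. Peaks that only touched were not joined. Primary Sp7 regions lay off wild-type control peaks. Intervals of shares are 95% Clopper-Pearson and hold counting error only. The background of each overlap share is taken over merged regions of the tagged cell line groups other than the group met, under the same rule. It thus includes the regions tested. The overlap code was tested on simulated intervals with planted overlaps. Computations used scipy 1.17.1, pandas 2.3.3 and numpy 2.4.6 in Python 3.11.15, and plots used matplotlib 3.10.9.

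Named regions are the 5 leading regions of each class in row order and the widest of each. The members, classes, lists and alternatives were chosen with earlier results of these data known. Distance to transcription starts, motifs and genes near regions were planned but not run, because no mm9 sequence or annotation was used here.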

Additional observations from a re-analysis of the deposited data

How the results depend on the processing

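A value was taken as moved when it left the main value by more than 1 SD over the 4 pairs of single lists. Asking for an overlap of at least 50% of both intervals gave 17.2% of Sp7 regions with Sp1 and 9.94% of Sp1 regions with Sp7, left 51.5% of Sp7 regions without an Sp1 peak and 68.8% of Sp1 regions without an Sp7 peak, and put Sp7 alone 79.4 kb from Sp1. The earlier 50% of each list gave 52.4% of Sp7 regions without an Sp1 peak, distances of 133 kb from Sp7 alone and 185 kb from Sp1 alone to the other factor, and a row difference of -17.7 percentile points between shared and other Sp1 regions. At equal length in row order, 5018 regions each, that difference was -6.52 and the distance from Sp7 alone 109 kb. Leaving out 1 replicate gave 24.4% to 68.7% for Sp7 regions with Sp1, 12.7% to 48.5% for Sp1 regions with Sp7, 31.3% to 68.3% and 51.4% to 82.4% for those without a peak of the other factor, distances of 13.9 to 52.3 kb from Sp7 alone and 17.6 to 84.4 kb from Sp1 alone, and row differences of -13.6 to -2.44 for Sp7 and -17.0 to -6.36 for Sp1. The difference in neighbours of the same factor within 10 kb turned, at -1.10 for Sp1 with the 50% overlap, and ranged from -1.34 to 1.44 for Sp7 and -2.73 to 4.23 for Sp1 without 1 replicate. Of 90 values of the 8 differences between classes under alternatives, 86 kept their direction. Some of these alternatives hardly changed the region sets, and pairs of single lists were not counted. In those pairs the Dlx5 difference for Sp7 was 0.314 and -0.252 percentage points with Sp1 replicate 2. Both differences in neighbours of the same factor changed sign over the pairs. Joining touching peaks, added after seeing the data, gave 5019 and 8942 regions. No paired analysis was possible because no result comes from a test across samples. The cause of these changes was not tested beyond the fewer or more peaks each step leaves.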
